A study of Rattus norvegicus with 2 samples.

Results

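Heat shock proteins and their partner chaperones were examined in the hypothalamus of rats that had been tickled. Members were taken by gene symbol from the array annotation: the Hsp70, Hsp90, small heat shock, Hsp60, Hsp10 and Hsp110 symbols, the J proteins of classes A, B and C (Dnaja, Dnajb, Dnajc), the numbered Cct subunits, the Pdia family, and Calr, Canx and Cryab. The rule found 87 genes, on 174 probes, among 14871 genes with a symbol of their own on the array. A further probe carried the symbols of both Hspd1 and Hspe1 and was given to neither. By compartment, from textbook knowledge, 56 members were placed in the cytosol or nucleus, 20 in the endoplasmic reticulum (ER) and 7 in the mitochondrion, and 4 were not assigned.

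The study used male Wistar rats that were 21 days old at the start and were housed apart from each other, with 4 animals in each of 3 conditions. Tickled rats received a hand stimulation that imitates rough play, on weekdays for 4 weeks, in repeats of 15 s of rest followed by 15 s of stimulation. The light-touch group was handled on the same schedule with a gentle contact that does not in general evoke play calls, and the third group had no stimulus. Hypothalamic RNA was compared on 2 two-colour arrays, 1 per comparison, with tickled RNA in Cy5 on both. Cy3 carried no-stimulus RNA on one array and light-touch RNA on the other. There was no replicate array and no dye swap, so no p-value was computed and no difference could be set against variation between animals. The labels do not say if RNA of several animals was combined, nor if 1 tickled sample served both arrays.

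Chaperones bind unfolded or partly folded proteins and keep them from aggregating. In the cytosol, Hsp70 proteins work in cycles of ATP hydrolysis set in motion by J proteins, Hsp90 finishes the folding of receptors and kinases, including the glucocorticoid receptor, and the CCT ring folds actin and tubulin. Stress that unfolds cytosolic proteins activates the factor HSF1, which binds heat shock elements, whereas unfolded proteins in the ER activate ATF6, XBP1 and PERK, and ATF6 acts through ER stress elements. The ER chaperones fold secreted proteins, which in the hypothalamus include the peptide hormones.

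Promoter sequences are shown first, because HSF1 and ATF6 are known to act on some chaperone genes through such elements. RefSeq promoters of the GRCr8 assembly, 250 bases before to 50 bases after the annotated gene start, were found for 70 of the 87 members. The heat shock element was searched on both strands as 3 alternating units, GAA, TTC and GAA or their reverse, with 2 bases of any kind between units. It was present in 6 of 70 member promoters and in 0.736% of the 27457 gene promoters of that length. The ER stress element was searched on both strands as CCAAT, 9 bases of any kind, and CCACG. It was present in 5 members, all among the 18 ER members with a promoter, and in 0.0765% of all promoters, or 21 genes. The CCAAT box that begins this element was in 44.3% of member promoters and 37.7% of all.

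The promoters of Hspa5 and Hsp90b1, the ER forms of Hsp70 and Hsp90, are shown whole because they hold ER stress elements, in capitals, 1 in Hspa5 and 2 in Hsp90b1. The Hspa5 window lies at chr3:38452766-38453065 on the plus strand and that of Hsp90b1 at chr7:23012244-23012543 on the minus strand, each written 5′ to 3′ along the gene.
Hspa5: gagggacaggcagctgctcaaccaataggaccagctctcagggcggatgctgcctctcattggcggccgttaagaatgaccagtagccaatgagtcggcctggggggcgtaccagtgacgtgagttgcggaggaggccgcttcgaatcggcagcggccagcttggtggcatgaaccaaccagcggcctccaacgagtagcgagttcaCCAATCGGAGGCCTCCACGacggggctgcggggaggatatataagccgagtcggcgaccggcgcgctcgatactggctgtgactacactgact
Hsp90b1: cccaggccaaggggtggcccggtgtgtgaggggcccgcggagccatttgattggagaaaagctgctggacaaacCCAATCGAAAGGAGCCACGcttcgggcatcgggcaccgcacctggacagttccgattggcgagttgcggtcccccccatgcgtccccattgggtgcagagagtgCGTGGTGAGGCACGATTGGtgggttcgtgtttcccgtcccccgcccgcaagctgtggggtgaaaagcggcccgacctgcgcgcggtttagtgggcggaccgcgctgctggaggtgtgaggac

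The ER stress elements of the other 3 matching members, calreticulin (Calr), calnexin (Canx) and the J protein Dnajc3, are given with their flanks, the match in capitals. The matches lie at chr19:40213135-40213153 for Calr, chr10:35158069-35158087 for Canx and chr15:102432534-102432552 for Dnajc3. That of Calr reads on the opposite strand.
Calr: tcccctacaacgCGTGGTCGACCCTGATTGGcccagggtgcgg
Canx: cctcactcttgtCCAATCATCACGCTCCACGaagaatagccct
Dnajc3: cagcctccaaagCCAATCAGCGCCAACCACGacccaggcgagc

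Of the heat shock element promoters, those of Hspa8 and Hspe1 are shown whole. Hspa8 encodes the constitutive Hsp70 and had 2 matches upstream of its start. Hspd1 and Hspe1 encode the mitochondrial Hsp60 and its Hsp10 lid, lie head to head, and share the same matched bases, at chr9:64084262-64084279. In capitals is the element, here 2 overlapping matches in Hspe1. The windows are chr8:50080264-50080563 for Hspa8 and chr9:64084077-64084376 for Hspe1, both on the plus strand.
Hspa8: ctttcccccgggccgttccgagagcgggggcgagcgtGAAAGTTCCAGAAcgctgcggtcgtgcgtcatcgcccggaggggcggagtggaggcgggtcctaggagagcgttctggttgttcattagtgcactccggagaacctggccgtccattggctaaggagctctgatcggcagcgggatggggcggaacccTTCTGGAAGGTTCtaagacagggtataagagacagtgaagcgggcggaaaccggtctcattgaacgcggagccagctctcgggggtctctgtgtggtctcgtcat
Hspe1: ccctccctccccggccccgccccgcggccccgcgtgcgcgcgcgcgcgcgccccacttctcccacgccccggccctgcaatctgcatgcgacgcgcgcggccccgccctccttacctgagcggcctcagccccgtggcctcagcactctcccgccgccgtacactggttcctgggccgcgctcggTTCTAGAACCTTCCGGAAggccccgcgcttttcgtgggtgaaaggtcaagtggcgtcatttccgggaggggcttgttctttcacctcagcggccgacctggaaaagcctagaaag

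In Hsph1, an Hsp110 nucleotide exchange factor, the element lay upstream of the start, at chr12:10427332-10427344. In Dnaja1, a class A J protein, and Cct4, a CCT subunit, it lay within the first transcribed bases, at chr5:60638413-60638425 and chr14:101193082-101193094.
Hsph1: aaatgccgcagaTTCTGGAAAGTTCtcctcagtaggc
Dnaja1: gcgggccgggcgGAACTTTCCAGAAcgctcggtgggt
Cct4: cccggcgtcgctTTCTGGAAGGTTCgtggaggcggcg

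**Figure D1:**
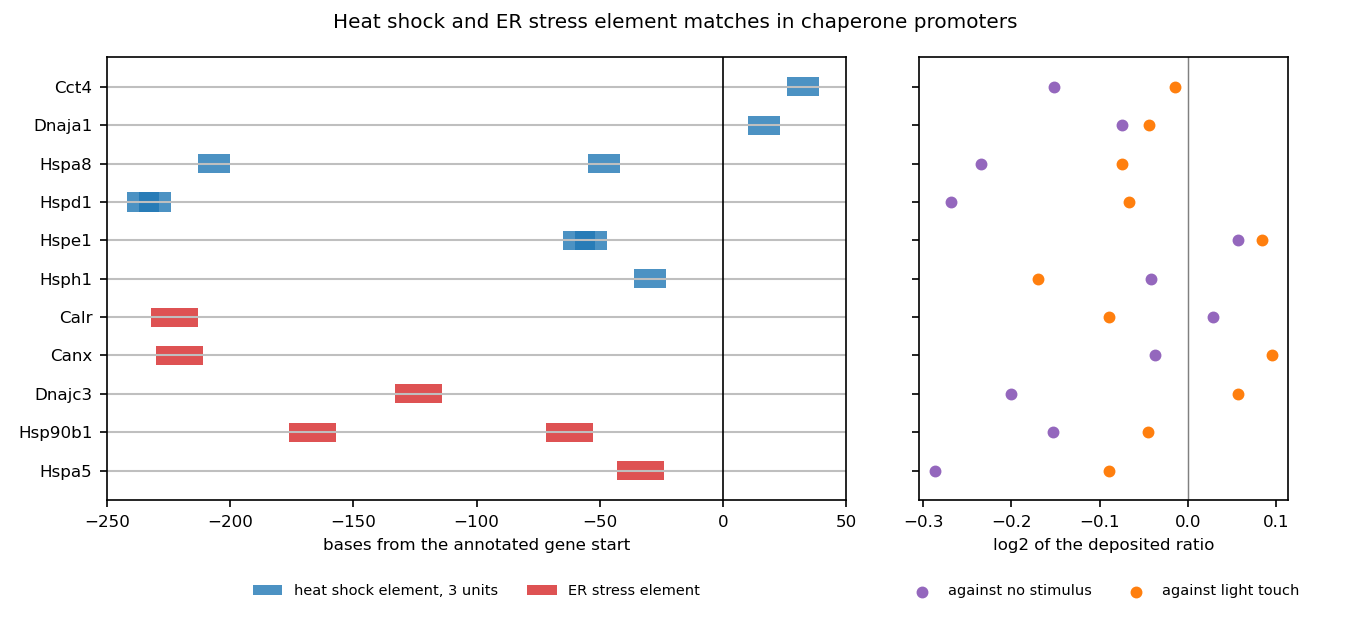
Left, matches to the heat shock element (blue) and the ER stress element (red) in 11 member promoters, by distance in bases from the annotated gene start. Right, log2 of the deposited ratio of the same genes on the no-stimulus array (purple) and the light-touch array (orange), 1 array each with no error bar. Hspe1 and Calr are the 2 genes right of 0 on the no-stimulus array.

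Values are the linear ratios deposited by the authors, read here as tickled over control. That direction is likely, since tickled RNA was in Cy5 on both arrays, but the numerator is not stated; if it was the other channel, every ratio turns over and counts above and below 1 trade places. A gene's value is the median log2 ratio of its probes. Ratios were deposited for 80 of the 87 members on each array, 79 of them on both. Hspb9 had a value on the light-touch array and none on the no-stimulus array, and Cct8l2 the reverse, while Hspa1b, Hspb2, Dnajb7, Dnajc1, Dnajc5b and Dnajc5g had none on either. Against no stimulus 9.77% of member probes were empty, beside 21.9% of all named probes, and against light touch 10.3% were, beside 23.4%. Probes of a gene spread by 0.18 log2 units (pooled SD) over all genes on both arrays, and by 0.16 and 0.15 over 40 member genes with at least 2 measured probes on the no-stimulus and light-touch arrays. This spread leaves out variation between animals. A ratio carries no level, so neither the labelled tissue nor the abundance of a member could be checked from it. All 14 hypothalamic peptide markers had values on both arrays.

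Against no stimulus, more chaperone genes had a ratio below 1 than above it, and among the 3 compartments the ER had the largest share below 1. Below 1 were 50 of the 80 measured members and above 1 were 29, where 45.1% of all 11881 genes lay below 1 and 51.8% above. The median log2 ratio of the members was -0.04, beside 0.01 for all genes. ER members had a median of -0.09, with 16 of 19 below 1, and mitochondrial members -0.06, with 4 of 7 below. Cytosolic and nuclear members had a median of 0.00, with 26 of 50 below 1 and 23 above, which is close to all genes. The 4 members without an assigned compartment all lay below 1. No test of the difference between compartments was possible with 1 array.

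Markers of adjoining tissues also differed from 1 on the no-stimulus array, and their part in the ER values was not tested. All 6 measured pituitary markers lay above 1, from 1.10 (Ghrhr) to 9.08 (Tshb), with Cga at 7.18, as did all 7 ependymal and tanycyte markers and 9 of 10 meningeal markers. Of 8 measured choroid plexus markers 5 lay below 1 and 3 above, from 0.08 (Ttr) to 1.10 (Folr1). Of 5 measured blood markers 3 lay below 1 and 2 above, from 0.52 (the globin gene Hbb-b1) to 1.16 (Slc4a1). Of the 14 hypothalamic peptides, whose products pass through the ER, 9 lay above 1 and 5 below. They ran from 0.38 (Gnrh1) to 1.62 (Pomc), with Avp at 0.51 and Oxt at 0.67. Against light touch 13 of the peptides lay above 1 and 1 below, from 0.91 (Gnrh1) to 2.13 (Pomc), with a median log2 ratio of 0.65. Their part in the ER values of that array was not tested either.

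At 1.2-fold or more below 1 against no stimulus were 7 of the 80 measured members, where 3.91% of all genes (464 of 11881) were. At 1.2-fold or more above 1 were 3 of the 80, where 8.38% of all genes (996 of 11881) were. The 7 were Dnajc28, Hspa1a, Cct8l2, Hspb1, Dnajb2, Hspa5 and Hspd1, and the 3 were Hspa1l, Dnajb8 and Dnajb13. At 1.5-fold, 1 member lay above (1.62% of all genes) and 1 below (0.362%).

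Against light touch, too, more members lay below 1 than above it. Below 1 were 45 of 80 members and above 1 were 34, where 46.1% of all 11745 genes lay below and 51.3% above. The median log2 ratio was -0.02, beside 0.01 for all genes. ER members had a median of -0.07, with 13 of 19 below 1, mitochondrial members -0.03, with 5 of 7 below, and cytosolic and nuclear members 0.01, with 24 of 51 below and 26 above. At 1.2-fold or more above 1 were 4 members (7.61% of all genes), namely Hspa1l, Hspb9, Dnajb13 and Dnajb8, and below it 1 (6.14%), Hspa12a. At 1.5-fold, 2 lay above (1.57%) and 0 below (0.928%). Both arrays contain tickled RNA, so the values of a gene on them are not independent and are given side by side.

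**Figure D2:**
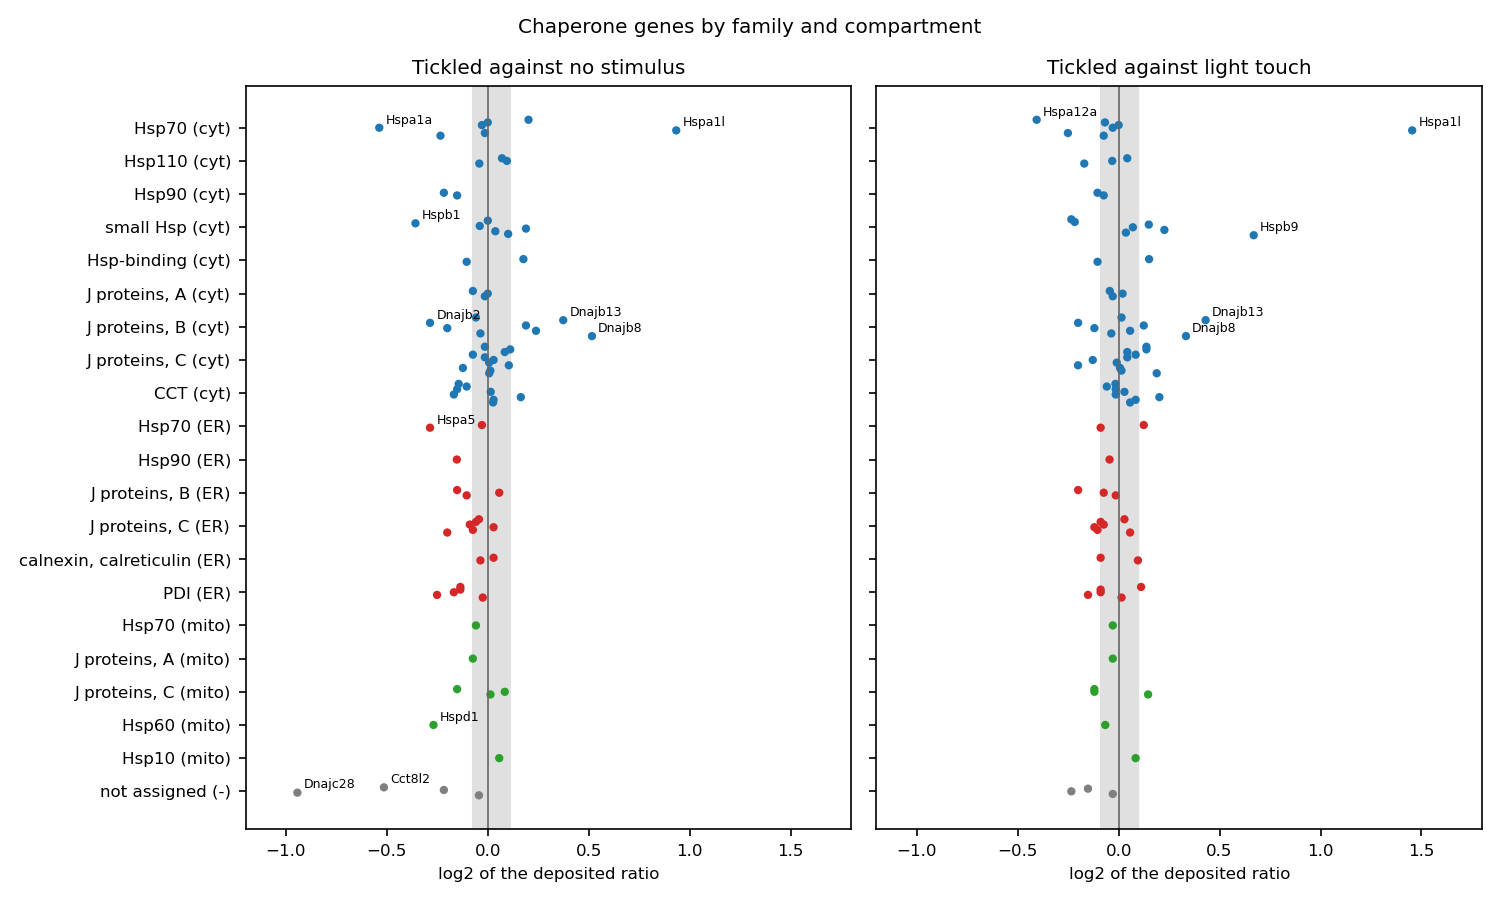
Log2 of the deposited ratio of each measured member (1 point per gene, the median of its probes) by family, with the compartment in brackets (cyt, cytosol and nucleus; mito, mitochondrion) and in colour, on the no-stimulus array (left) and the light-touch array (right). The grey band holds the middle 50% of all genes, genes 1.2-fold or more from 1 are named, and the ER members (red) lie mostly left of 0.

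ER members differed little among themselves. On the no-stimulus array they ran from -0.29 to 0.06 on the log2 scale, with an SD over genes of 0.09. Cytosolic and nuclear members had an SD of 0.22 and all genes 0.20. A small spread was not peculiar to the ER. The SD was 0.12 for mitochondrial members, 0.12 for CCT subunits and 0.07 for cytosolic class C J proteins, but 0.46 for cytosolic Hsp70 genes. Hspa5, which holds the ER stress sensors inactive and is the standard readout of their activation, had the lowest ER value on this array, 0.82, and 0.94 against light touch, from 1 probe. Hsp90b1, the ER Hsp90, was at 0.94 and 0.86 on its 2 probes against no stimulus and at 1.01 and 0.93 against light touch. Dnajc3, a J protein that also restrains the PERK kinase, was at 0.87 and 1.04, and Dnajb9, which serves Hspa5 in degradation, at 0.93 and 0.99. Dnajb11, the J partner of Hspa5 in the lumen, was at 0.90 and 0.87, the lowest ER value on the light-touch array. Among the J proteins anchored in the ER membrane, Dnajb12 was at 1.04 and 0.95 and Dnajc18 at 1.02 and 0.92. Hspa13, Dnajc10, Dnajc14, Dnajc16 and Dnajc25 lay between 0.94 and 0.98 against no stimulus and between 0.93 and 1.09 against light touch.

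The protein disulfide isomerases, which form and shuffle disulfide bonds, all had gene ratios below 1 against no stimulus. Pdia5 had a ratio of 0.84, Pdia4 0.89, and Pdia3 and Pdia2 both 0.91, from 1 probe each. Pdia6 was at 0.98, from probes on both sides of 1, at 1.05 and 0.92. Against light touch Pdia5 was at 0.90, Pdia3 and Pdia4 both at 0.94, Pdia6 at 1.01 and Pdia2 at 1.08. By gene ratio the family therefore lay on 1 side of 1 on the first array and on both sides on the second. The lectin chaperones of glycoproteins were close to 1 throughout. Calr had ratios of 1.02 and 0.94 and Canx, over 4 probes, 0.97 and 1.07, in the order no stimulus and light touch that is kept below.

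Most ER values rest on 1 probe. The 6 ER members with at least 2 measured probes had a median log2 ratio of -0.04 against no stimulus and 0.00 against light touch, nearer to 1 than the full set. With J proteins left out of both compartments the ER median minus the cytosolic one was -0.13 log2 units on the no-stimulus array, and -0.09 with them in. On the light-touch array it was -0.05 without J proteins and -0.08 with them.

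**Figure D3:**
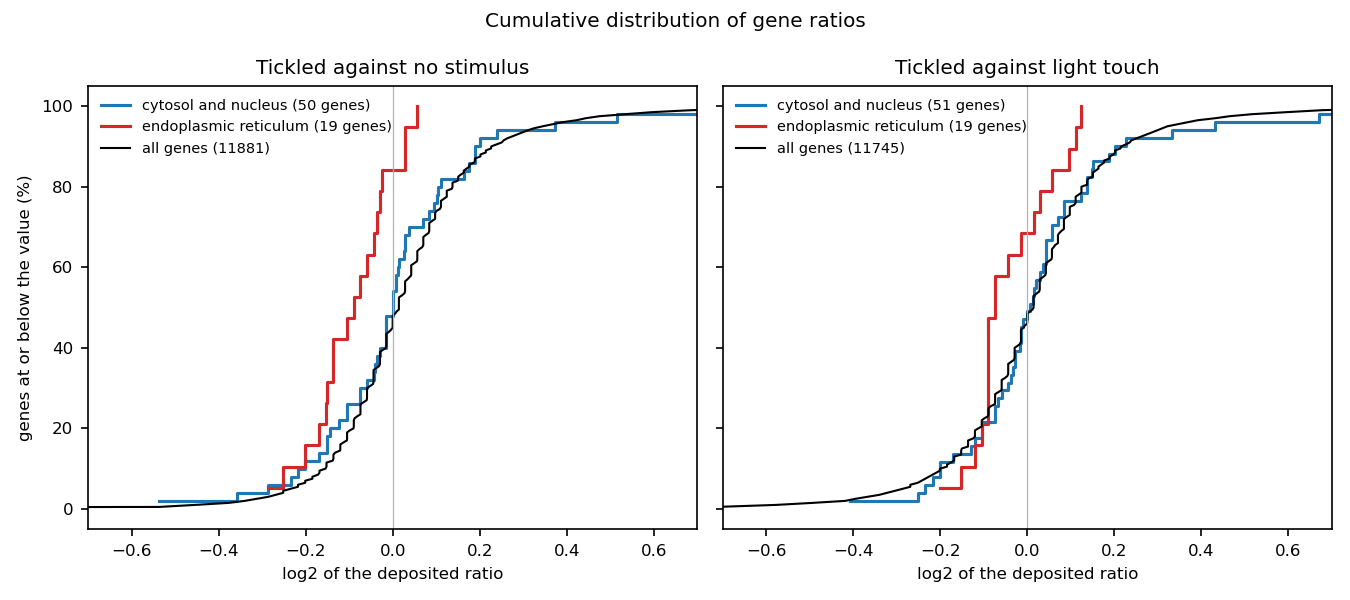
Share of genes (%) at or below each log2 ratio for cytosolic and nuclear members (blue), ER members (red) and all measured genes (black) on the no-stimulus array (left) and the light-touch array (right); the horizontal axis is limited to the centre, so a few genes fall outside it. The red line is left of the black one over most of its range, and the blue line follows the black one.

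In the cytosolic Hsp70 family, the stress-inducible and the constitutive gene were both below 1 against no stimulus. Hspa1a, the inducible Hsp70 and a common reporter of heat shock, had probes at 0.65 and 0.73 there, a gene ratio of 0.69, and probes at 0.99 and 0.97 against light touch. Its near-identical copy Hspa1b had no value, and the probes may not separate the copies. Hspa8, the constitutive Hsp70, had 5 probes between 0.84 and 0.93 against no stimulus and between 0.92 and 0.97 against light touch, with medians of 0.85 and 0.95. All 5 lay below 1 on both arrays. Hspa2 was at 0.99 and 0.84, Hspa14 at 0.98 and 1.0, and Hspa12b at 1.0 and 0.95, though its 4 probes ran from 0.77 to 1.15 and from 0.84 to 1.30.

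The gene ratios of both cytosolic Hsp90 genes were below 1 on both arrays, although not every probe was. Hsp90aa1, the inducible form, had 4 of 5 probes below 1 on each array, with gene ratios of 0.86 and 0.93, and the remaining probe at 1.08 and 1.06. Hsp90ab1, the constitutive form, had ratios of 0.90 and 0.95, with 5 of 5 probes below 1 against no stimulus and 4 of 5 against light touch, where the remaining probe was at 1.18. The Hsp110 genes, which recharge Hsp70 with ATP, lay on both sides of 1. Hspa4 was at 1.05 and 1.03, Hspa4l at 1.07 and 0.98, and Hsph1 at 0.97 and 0.89, the last with probes at 0.89 and 1.06 against no stimulus.

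**Figure D4:**
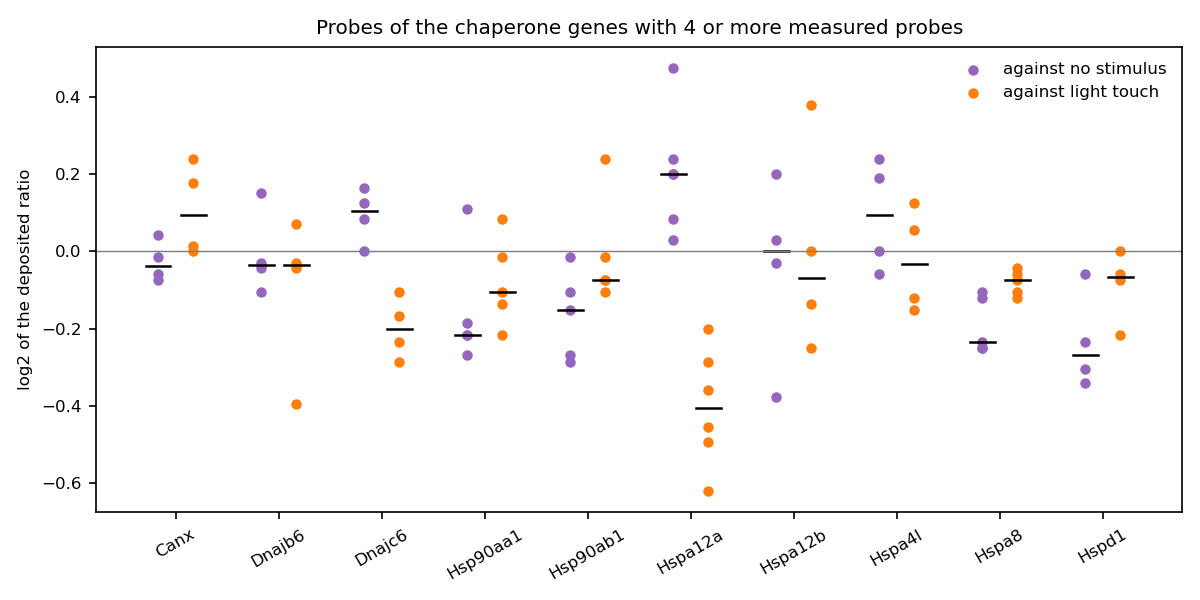
Log2 of the deposited ratio for each probe (points) of the 10 members with 4 or more measured probes on both arrays, with the median of a gene's probes as a black line, on the no-stimulus array (purple) and the light-touch array (orange). Hspa8 probes lie below 0 on both arrays, and the purple and orange points of Hspa12a do not overlap.

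Among the 10 members with 4 or more measured probes, Hspa12a and Dnajc6 were the ones whose probes all lay at or above 1 against no stimulus and all below 1 against light touch. Hspa12a, a distant Hsp70 relative that is abundant in brain, had 6 probes between 1.02 and 1.39 against no stimulus and between 0.65 and 0.87 against light touch. Its gene ratios were 1.15 and 0.75, the latter the lowest of the members on that array. Dnajc6 encodes auxilin, the neuronal J protein that directs Hspa8 to strip clathrin from synaptic vesicles. Its 4 probes lay between 1.0 and 1.12 against no stimulus and between 0.82 and 0.93 against light touch, with ratios of 1.07 and 0.87. Dnajc5, the cysteine string protein of synaptic vesicles, had ratios of 1.0 and 0.99.

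Markers of thalamus, cortex and striatum had, as a list, a higher median on the first array than on the second, but the genes were mixed. Tcf7l2, Prkcd, Lef1, Slc17a7, Slc17a6 and Neurod6 lay above 1 on the first array and below 1 on the second. Tcf7l2 was at 1.78 and 0.53, Prkcd at 2.42 and 0.44, Lef1 at 1.35 and 0.49, and Slc17a7 at 1.64 and 0.31. Slc17a6 was at 1.18 and 0.76 and Neurod6 at 1.04 and 0.97. Ppp1r1b was also higher on the first array, but above 1 on both, at 1.14 and 1.10. Tbr1, Drd1, Drd2, Rgs9 and Adora2a were higher on the second. Of the 15 listed, 12 had values. Against no stimulus 7 were above 1 and 5 below, from 0.71 (Tbr1) to 2.42 (Prkcd), with a median log2 ratio of 0.12, and against light touch 3 were above and 9 below, from 0.31 (Slc17a7) to 1.15 (Rgs9), with a median of -0.15. In bulk tissue, a different share of such cells or regions and a different RNA level per cell cannot be told apart, and the part of these tissues in the values of Hspa12a and Dnajc6 was not tested.

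Small heat shock proteins, which hold unfolded proteins without using ATP, were spread on both sides of 1. Hspb1, the inducible Hsp27, was at 0.78 and 0.86, below 1 on both arrays, from the only one of its 2 probes with values. Cryab, the alpha B crystallin of glia, was at 1.0 and 0.85 from 1 probe. Oligodendrocyte markers, of which 13 of 14 had values, were at a median log2 ratio of 0.02 against no stimulus and -0.14 against light touch, where 12 of 13 lay below 1 and the range was 0.86 (Mog) to 1.07 (Sox10). Their part in the Cryab value was not tested. Hspb8, which works with Bag3 in autophagy, was at 1.07 and 1.03, Hspb6 at 1.14 and 1.05, and Hspb3 at 0.97 and 1.11. The probes of Hspb7, at 1.30 and 0.81 against no stimulus, did not give like values.

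J proteins choose the clients and the place of action of Hsp70. Of the 42 J protein genes in all compartments 38 had a value, with 23 below 1 and 15 above against no stimulus and 21 below and 17 above against light touch. Dnajb1, the HSF1-induced J protein used as a marker of heat shock, had 3 probes between 0.95 and 0.96 against no stimulus and between 1.0 and 1.04 against light touch. Dnaja1, its class A counterpart, had ratios of 0.95 and 0.97. Both gene values lay within the spread of probes around 1. Dnajb2, a neuronal J protein, was at 0.82 and 0.87, Dnajb4 at 0.87 and 0.92, and Dnajb3 at 1.14 and 1.09. Dnajb6, a suppressor of polyglutamine aggregation, was at 0.97 on both, and Dnajb5 at 1.18 and 1.04, with a probe at 1.72 and 1.60 that differed from its other probes.

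Dnajc28, whose function is little known, had the lowest ratio of any member on the no-stimulus array, 0.52, and 0.85 against light touch, from 1 probe. Other class C genes of the cytosol and nucleus were near 1. Dnajc7, which binds both Hsp70 and Hsp90, was at 0.92 and 1.0, and Dnajc9, a histone chaperone, at 1.0 and 1.14. Dnajc12 was at 0.99 and 1.10, Dnajc21 at 0.95 and 1.06, and Dnajc27 at 1.02 and 0.91. Dnaja2, Dnaja4, Dnajc2, Dnajc8, Dnajc17 and Dnajc24 lay between 0.99 and 1.08 against no stimulus and between 0.98 and 1.10 against light touch. Of the members without an assigned compartment, Cct8l2 was at 0.70 against no stimulus, Dnajc22 at 0.86 and 0.90, and Dnajc4 at 0.97 and 0.98. Hspbp1, a nucleotide exchange factor of Hsp70, was at 0.93 on both arrays and Hspbap1, which binds Hspb1, at 1.13 and 1.11.

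The gene ratios of the subunits of the CCT ring, which is assembled in fixed proportion, stayed within 1.2-fold of 1 on both arrays. Single probes ran wider, for Cct6a from 0.77 to 1.01 against no stimulus and for Cct5 from 0.97 to 1.30 against light touch. Of the 8 measured, 4 lay below 1 and 4 above on each array. Cct2, Cct3, Cct4 and Cct6a were the 4 below 1, from 0.89 to 0.93 against no stimulus and from 0.96 to 0.99 against light touch. Cct5, Cct7 and Cct8 were at 1.01, 1.02 and 1.02 against no stimulus, and at 1.02, 1.06 and 1.04 against light touch. Tcp1, the ring subunit whose symbol the rule does not take and which is not in this tally, was at 0.93 and 1.02. Cct6b, the form found mainly in testis, was the highest on both, at 1.12 and 1.15.

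In the mitochondrion, Hspd1 (Hsp60) and Hspe1 (Hsp10) form 1 folding chamber and are transcribed from the shared promoter shown above. Hspd1 had 4 probes between 0.79 and 0.96 against no stimulus, with a ratio of 0.83, and 0.95 against light touch. Hspe1 was at 1.04 and 1.06 from 1 probe, and the probe annotated to both genes was at 1.13 and 1.17. The gene ratios of the partners lay on different sides of 1. Those of Hspe1 on both arrays, and of Hspd1 against light touch, were within the spread between probes around 1. Hspa9, the mitochondrial Hsp70 that pulls proteins through the inner membrane, was at 0.96 and 0.98, with a probe at 1.21 and 1.27. Dnaja3, its J partner, was at 0.95 and 0.98, Dnajc11 at 0.90 and 0.92, Dnajc15 at 1.06 and 0.92, and Dnajc30 at 1.01 and 1.11.

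The highest members were Hspa1l, Dnajb8 and Dnajb13 and, against light touch, Hspb9. Hspa1l, the Hsp70 of spermatids, had ratios of 1.91 and 2.74, higher than any other member on each array, from the only one of its 2 probes with values. That probe was among the 20% with outermost numbers. After subtraction of the local median of neighbouring probes its log2 ratio was 0.88 and 1.36, beside 0.93 and 1.45 as deposited. Dnajb8 was at 1.43 and 1.26, also from an outermost probe, and Dnajb13, of sperm flagella and motile cilia, at 1.30 and 1.35 from probes in the middle. Hspb9, a small heat shock protein known from testis, was at 1.59 against light touch. Hspa2, the Hsp70 of spermatocytes, was at 0.99 and 0.84 from 1 probe, and Cct6b, found mainly in testis, at 1.12 and 1.15. Hspa1l is similar in sequence to Hspa1a, at 0.69 and 0.98, and to Hspa8, at 0.85 and 0.95. Its probe may hold signal from these relatives, which was not tested. Of 8 postmeiotic germ cell markers, 3 had a value against no stimulus, from 0.92 (Prm1) to 1.19 (Akap4), and 4 against light touch, from 0.77 (Spata3) to 1.24 (Tnp2), and their part in these values was not tested. Signal brightness was not used here.

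Against no stimulus, the genes with a searched element had lower median ratios than the rest of their compartments, and against light touch this held for the heat shock element but not for the ER stress element. Of the 6 with a heat shock element, 5 lay below 1 on each array, all but Hspe1, with median log2 ratios of -0.11 and -0.06. Cytosolic, nuclear and mitochondrial members with a promoter but no match had 19 of 40 and 18 of 41 below 1, with medians of 0.01 on both arrays. Of the 5 ER members with an ER stress element, 4 lay below 1 against no stimulus and 3 against light touch, with medians of -0.15 and -0.05. The 12 ER members with a promoter and no match had medians of -0.08 on both arrays, with 10 and 9 below 1. These are descriptions of a few genes, and a match is not evidence that the factor binds there. Nor does the lack of a match to these strict patterns in a short window show that a gene is not a target. Hspa1a, Hspb1, Hsp90aa1 and Dnajb1, described above as inducible, were not among the 6 with a heat shock element. Hspd1 and Hspe1 count as separate genes there but share the matched bases. The 17 members without a promoter were left out.

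Regulators and partners of the chaperones, from lists of other genes of the pathways, did not all lean to the same side of 1. Shares over all genes, to be read beside these lists, were 45.1% below 1 and 51.8% above against no stimulus. Against light touch they were 46.1% below and 51.3% above. Of 26 measured heat shock factors and Hsp70 or Hsp90 cochaperones, 18 lay below 1 and 7 above against no stimulus, with a median log2 ratio of -0.08, and 16 below and 10 above against light touch, with a median of -0.05. Hsf1, the master factor of the heat shock response, was at 0.86 and 0.89. The lowest were Chordc1 at 0.83 against no stimulus and Ahsa2 at 0.85 against light touch, and the highest was Bag1, at 1.26 and 1.14. Stip1, which hands clients from Hsp70 to Hsp90, was at 0.87 and 0.92, and Fkbp5, a glucocorticoid-induced Hsp90 cochaperone, at 0.88 and 0.97.

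Of 23 measured genes of the unfolded protein response and ER-associated degradation, 14 lay below 1 and 7 above on each array, with a median log2 ratio of -0.04 on both. Creld2 was the lowest against no stimulus, at 0.81, and Sdf2l1 against light touch, at 0.81, and both are induced with Hspa5 in ER stress. Eif2ak3, the PERK sensor, was the highest against no stimulus at 1.29, and was at 0.95 against light touch, where Edem1 was the highest at 1.14. Ddit3, the CHOP factor of prolonged ER stress, was at 0.96 and 0.97, and Atf4 at 0.95 and 0.84. Of 30 other ER folding factors measured, 16 lay below 1 and 11 above against no stimulus (median -0.01), whereas 8 lay below and 20 above against light touch (median 0.04), with extremes of Tmx1 at 0.88 and Fkbp9 at 1.14, and of Ero1b at 0.88 and Fkbp11 at 1.28.

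The proteasome, which degrades what chaperones cannot fold, had 20 of 30 measured subunits below 1 against no stimulus (median log2 ratio -0.05). Against light touch 15 of 30 were below 1 (median 0.00). Over all genes, 45.1% and 46.1% lay below 1 on the 2 arrays. Psma3 was its lowest subunit on both, at 0.89 and 0.92, and the highest were Psmc1 at 1.21 and Psma4 at 1.45. Mitochondrial chaperones and proteases outside the member list had medians of 0.02 and -0.01 over 14 genes, with Timm44 lowest, at 0.80 and 0.87, and Clpp highest, at 1.17 and 1.32. Prefoldin, CCT partners and Tcp1 had medians of 0.01 and 0.03 over 7 genes, between Pdcl at 0.93 and Pfdn1 at 1.03 on the first array and between Pdcl3 at 0.93 and Pfdn1 at 1.14 on the second. Ratios slightly below 1 against no stimulus were therefore also found in cochaperones and proteasome subunits, and were not peculiar to chaperones.

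The arrays can be set against each other for light touch over no stimulus, by subtracting the light-touch from the no-stimulus log2 ratio, which is meaningful only with 1 tickled RNA in common. On that reading Hspa12a was 0.61 log2 units higher with light touch, a fold of 1.52, and Dnajc6 0.31 higher. Dnajc28 was lower by a difference of -0.71, Hspa1l by -0.52 and Hspa1a by -0.51, the first and second of these from 1 measured probe each. For Hspa5 the difference was -0.20 and for Hspd1 -0.20. The spread between probes of a gene, 0.18 log2 units, is that of 1 array, and none was worked out for a difference between arrays.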

How the data were processed

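The authors deposited 1 linear ratio per probe and array, to 2 decimals, and the median ratio was 1 on both arrays. Image analysis, background correction, normalization and the rule for empty probes were not given in the sources used here. Per the labels, 500 ng of total RNA was amplified to aminoallyl cRNA and coupled to Cy3 or Cy5. Of 44290 probes, 23535 had 1 symbol in the platform annotation. The Entrez identifiers of 86 members were in the RefSeq table of GRCr8, with unchanged symbols. Ratios were converted to log2, and the median over a gene's probes was taken, with pandas 2.3.3 in Python 3.11.15. No test was possible with single arrays; genes were counted by side of 1 and at 1.2-fold and 1.5-fold, beside all genes. The number of arrays limits the precision. Members with full values were a fixed list of 23 well-known chaperones, the 5 highest and 5 lowest on each array, those 1.5-fold or more from 1, and those whose probes differed by 0.5 log2 units or more; other members were named by family, and of related lists the highest and lowest and some well-known genes. Members, lists and named genes were chosen with earlier results of these data known. Alternatives covered the probe summary, probe position, centring and filters.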

Additional observations from a re-analysis of the deposited data

How the results depend on the processing

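Across 7 alternatives, 32 genes were followed. Each of the 401 alternative gene values stayed within the spread between probes of a gene (0.18 log2 units) of the deposited one. Filters for 2 or more probes (35 comparisons) and for a value on both arrays (60) cannot alter a gene value. For a gene with 1 measured probe, the mean, the left-out probe and the middle 80% cannot either. With 2 measured probes, the mean and the left-out probe cannot. Part of this stability, and of that in sign, was thus fixed by the settings. In 53 of 62 cases a gene kept 1 sign throughout. Of 142 alternative medians, differences and counts, 123 stayed close and 19 moved. The mitochondrial median against no stimulus was 0.0132 with the mean of probes and with the middle 80% of probe numbers, instead of -0.06. With the middle 80%, members at 1.2-fold or more above 1 against no stimulus numbered 1 instead of 3, and those at 1.5-fold or more above 1 numbered 0 instead of 1, and against light touch 1 instead of 2, since the probes of Hspa1l and Dnajb8 were left out. Requiring a value on both arrays also gave 1 instead of 2, because Hspb9 was dropped. Centring on the gene median gave 2 members instead of 1 at 1.2-fold or more below 1 against light touch. Only genes with 2 or more probes leaves 40 members, so the counts are smaller by construction. Below and above 1 were then 23 and 17 on each array; at 1.2-fold or more, 1 was above and 2 below against no stimulus and 1 above against light touch; at 1.5-fold, 0 were above or below. The ER medians were -0.0403 against no stimulus and -0.000107 against light touch. No paired analysis was possible because each comparison had 1 array.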
